A study of Arabidopsis thaliana with 6 samples.

Results

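10 nuclear genes were followed here that encode parts of the photosynthetic electron transport chain and the chloroplast ATP synthase: PETC (AT4G03280), PETE1 (AT1G76100), PETE2 (AT1G20340), FD2 (AT1G60950), LFNR1 (AT5G66190), LFNR2 (AT1G20020), ATPC1 (AT4G04640), ATPD (AT4G09650), PGR5 (AT2G05620) and PGRL1A (AT4G22890). They were taken by locus identifier from a list of names, and are 10 of the 32834 loci in the deposited count table. The list was chosen with earlier results of these data known. The study measured poly(A) RNA in whole Arabidopsis thaliana Col-0 seedlings at 7 days by RNA sequencing, with 2 libraries in each of 3 groups. The groups labelled MIF_1 and MIF_3 both carry pTA7002-Dexp:Myc-MIF, a transgene for Myc-tagged MIF behind a promoter that dexamethasone switches on, and the third group is WT, untransformed Col-0. All 3 groups, WT included, were grown with 10 µM dexamethasone on medium with 1% sucrose, after 3 days in the cold, in days with 16 h of light. The labels do not say what the numbers in MIF_1 and MIF_3 stand for, nor whether the replicates came from separate cultures, so the p-values measure the spread between these libraries. No library of a plant with an empty vector, or of a transgenic plant without dexamethasone, was analysed here, so the transgene cannot be told apart from the MIF protein it makes. The study's title concerns an F-box protein's control of MORF2, a plastid RNA editing factor.

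In the thylakoid membrane, the cytochrome b6f complex passes electrons to plastocyanin, a small copper protein of the lumen, which carries them to photosystem I. Photosystem I reduces ferredoxin on the stromal side, and ferredoxin-NADP+ oxidoreductase uses ferredoxin to make NADPH. Protons released in the lumen drive the chloroplast ATP synthase, and a cyclic path around photosystem I, which needs PGR5 and PGRL1, adds to the proton gradient without making NADPH. Both the cytochrome b6f complex and the ATP synthase are mosaics of subunits encoded in the nucleus and in the plastid. In Arabidopsis seedlings these nuclear genes are active in green tissue and respond to light and to the state of the plastid.

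In the TAIR10.1 annotation the genes lie on 4 chromosomes. PETC is at chr4:1440146-1441863 on the plus strand, ATPD at chr4:6100714-6101864 on the plus strand, ATPC1 at chr4:2350498-2352025 on the minus strand and PGRL1A at chr4:12006986-12009536 on the plus strand. FD2 is at chr1:22444307-22445291 and LFNR2 at chr1:6942625-6945091, both on the plus strand, while PETE1 at chr1:28553883-28554930 and PETE2 at chr1:7042046-7043392 are on the minus strand. LFNR1 is at chr5:26450964-26453199 and PGR5 at chr2:2080647-2081859, both on the minus strand. The bases just upstream of the annotated start are shown for PETC, PETE2 and ATPD, which hold more than 1 of the motifs searched. They are also shown for FD2, which had the lowest level relative to WT and holds none of them. Each window is 250 bases, written 5′ to 3′ on the gene's own strand and ending at the base before the annotated start, and the capitals mark motif matches.
PETC, chr4:1439896-1440145, plus strand: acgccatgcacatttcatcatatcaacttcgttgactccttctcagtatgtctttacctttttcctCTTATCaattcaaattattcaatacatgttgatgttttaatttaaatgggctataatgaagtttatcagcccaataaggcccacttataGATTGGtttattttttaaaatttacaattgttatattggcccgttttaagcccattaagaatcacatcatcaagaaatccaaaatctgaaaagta
PETE2, chr1:7043393-7043642, minus strand: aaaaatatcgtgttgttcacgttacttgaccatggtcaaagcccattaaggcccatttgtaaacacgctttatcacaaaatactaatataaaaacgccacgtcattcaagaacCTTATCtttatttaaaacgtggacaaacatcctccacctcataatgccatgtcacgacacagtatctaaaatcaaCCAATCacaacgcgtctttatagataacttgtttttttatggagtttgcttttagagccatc
ATPD, chr4:6100464-6100713, plus strand: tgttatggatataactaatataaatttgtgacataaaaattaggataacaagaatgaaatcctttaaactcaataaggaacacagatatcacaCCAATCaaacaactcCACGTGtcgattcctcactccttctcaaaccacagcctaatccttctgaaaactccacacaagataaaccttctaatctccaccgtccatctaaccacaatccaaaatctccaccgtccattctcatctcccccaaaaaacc
FD2, chr1:22444057-22444306, plus strand: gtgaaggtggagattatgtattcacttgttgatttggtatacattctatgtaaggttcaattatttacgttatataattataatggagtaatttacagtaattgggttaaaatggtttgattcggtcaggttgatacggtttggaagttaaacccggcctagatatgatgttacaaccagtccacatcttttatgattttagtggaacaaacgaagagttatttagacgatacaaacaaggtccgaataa
4 motifs were searched on both strands, each as a string of letters, and no matches overlapped. The I-box, GATAAG, was found upstream of PETC, PETE2 and LFNR1, 3 of 10 genes, against 12.3% of the 27443 protein-coding genes. CCAATC was found upstream of PETC, PETE2 and ATPD, 3 of 10 genes, against 10.2% of all. The G-box, CACGTG, was found upstream of ATPD, 1 of 10 genes, against 6.49% of all, and the evening element, AAAATATCT, upstream of ATPC1, 1 of 10 genes, against 2.36% of all. The windows of PETE1, FD2, LFNR2, PGR5 and PGRL1A held none of these motifs. These matches describe the letters in these windows, and whether they bear on the levels was not tested.

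The libraries held 22403469 and 22827857 counts in MIF_1, 24175475 and 24698636 in MIF_3, and 21404582 and 18262579 in WT. The 10 genes together took 0.769% and 0.847% of the counts in MIF_1, 0.830% and 0.997% in MIF_3, and 1.12% and 1.08% in WT. WT replicate 2 stood apart in its organelle counts: plastid-encoded loci took 0.132% of its counts, against 0.0203% to 0.0273% in the other 5 libraries, and mitochondrial loci 0.0949%, against 0.0276% to 0.0384%. Markers of shoot tissue, 7 of 8 of which were counted well enough to test, summed to 132 and 137 counts-per-million units (CPM) in MIF_1, 137 and 140 CPM in MIF_3, and 159 and 157 CPM in WT, and CLV3 was at 0 in 5 of the 6 libraries. AS1 and FAMA fell and 5 shoot markers did not pass in the mean of both transgenic groups. Markers of root tissue, 9 of 9 of them counted in every library, summed to 54.5 and 62.2 CPM in MIF_1, 69.4 and 66.0 CPM in MIF_3, and 55.8 and 47.6 CPM in WT, and EXPA7 was the single marker that rose in that comparison. The shoot sum was thus lower in the 4 transgenic libraries than in both WT libraries, as were the genes described here. AS1 held its largest share, at 40.4 and 42.6 CPM in MIF_1, 40.8 and 48.6 CPM in MIF_3, and 56.2 and 60.9 CPM in WT. Group by group, FAMA, GL1 and AS1 fell in MIF_1 (log2 fold change -1.07, -1.53 and -0.50) and did not pass in MIF_3 (-0.04, -0.11 and -0.39). The root marker EXPA7 rose in MIF_1 (0.98) and MIF_3 (1.19), and CASP1 rose in MIF_3 (0.64) only. Of the shoot markers that did not pass in the mean comparison, STM (0.29) and SPCH (0.24) lay above 0, and FIL, YAB3 and GL1 below. What part the shoot sum has in the results was not tested. In whole seedlings, fewer green cells and less RNA per cell cannot be told apart. The locus of MORF2 (AT2G33430) stood at 111 and 107 CPM in MIF_1, 92.4 and 96.8 CPM in MIF_3, and 103 and 98.4 CPM in WT, with adjusted p values of 0.471 for MIF_1 and 0.585 for MIF_3 against WT (edgeR quasi-likelihood test).

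The question addressed was how far the transcripts of this pathway differ between dexamethasone-treated seedlings with the MIF transgene and WT. The locus of MIF is not named in the sources used here, so whether the transgene was induced was not checked. All 10 genes were lower in each of the 4 transgenic libraries than in both WT libraries. How many of all tested genes separate in this way was not counted, so this only describes the 10. Against WT, 9 of the 10 fell in MIF_1 and 3 in MIF_3, and none rose in either. A gene was called changed where the p of edgeR's quasi-likelihood test, with Benjamini-Hochberg adjustment over all 20438 genes tested, was below 0.05. In MIF_1 9.85% of all tested genes fell and 7.82% rose, and in MIF_3 7.47% fell and 5.84% rose. These are abundant transcripts, with mean CPM ranks between 20 (PETE2) and 1002 (PGR5) among the genes tested. By mean log2 CPM, a measure that orders the genes slightly differently, 991 genes were at least as abundant as the lowest of the 10; of these, 30.4% fell in MIF_1 and 16.5% in MIF_3. The median log2 fold change of the 10 genes was -0.56 in MIF_1 (range -0.92 to -0.30) and -0.33 in MIF_3 (range -0.77 to -0.14), against 0.01 over all genes in both comparisons and -0.09 and -0.11 over the 991 abundant genes. The 2 comparisons share the WT libraries. Because the 10 genes were chosen with earlier results of these data known, the shares beside them describe and are no independent support. In the mean of both transgenic groups against WT, 8 of the 10 fell and none rose, where 10.9% of all genes and 29.1% of the abundant genes fell and 7.76% of all genes rose.

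**Figure D1:**
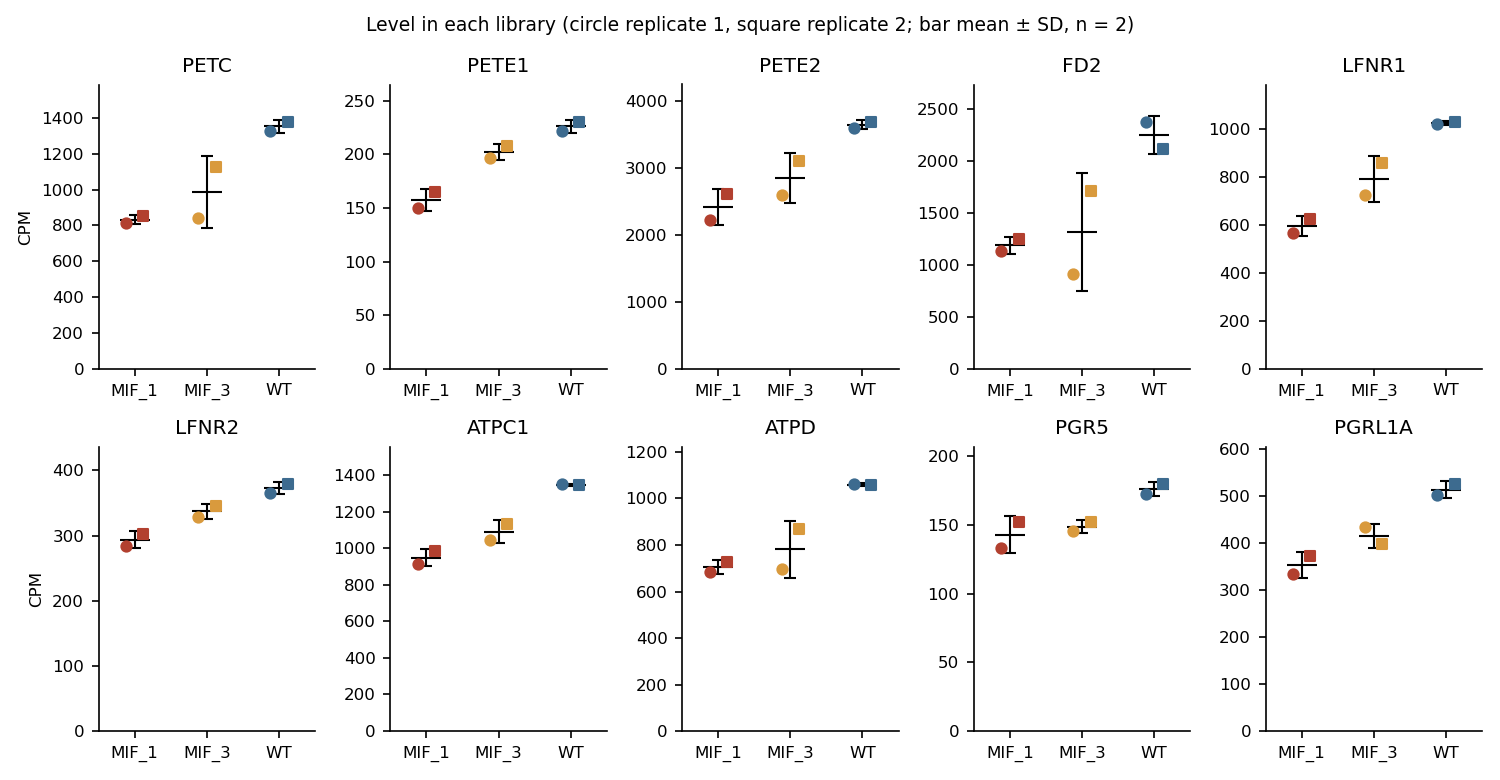
CPM (scaled library sizes, linear axes from 0) of each of the 10 genes in each library, with MIF_1, MIF_3 and WT from left to right; circles are replicate 1, squares replicate 2, and bars the mean ± SD (n = 2 each). In all panels the 4 transgenic points lie below both WT points, and the MIF_3 points are widest apart for FD2, at 916 and 1714 CPM.

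How many of the 10 genes were called changed when single libraries were left out. In MIF_1 the count of 9 became 1 without MIF_1 replicate 1, 5 without MIF_1 replicate 2, 7 without WT replicate 1 and 6 without WT replicate 2; LFNR1 passed each time. The calls lost without MIF_1 replicate 1 included ATPC1 (adjusted p = 0.0670) and PGRL1A (adjusted p = 0.0671). In MIF_3 the count of 3 became 0 without either WT library or either MIF_1 library, 1 without MIF_3 replicate 1 and 6 without MIF_3 replicate 2. In the mean comparison the count of 8 became 3 without either WT library. Where a group was left with 1 library, that library was assumed to vary like those of the other groups. The log2 fold change against WT of each of the 10 genes was negative under all of these settings. With each transgenic library below both WT libraries, leaving out 1 library could hardly turn a sign, so this adds no support.

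PETC encodes the Rieske iron-sulfur protein, the nuclear-encoded redox subunit of the cytochrome b6f complex. It stood at 813 and 850 CPM in MIF_1, 843 and 1126 CPM in MIF_3, and 1327 and 1379 CPM in WT. Both transgenic groups lay below WT without overlap, and MIF_3 replicate 1 was close to the MIF_1 libraries while replicate 2 lay between them and WT. PETC fell in MIF_1 (log2 fold change -0.70 ± 0.13 SE, adjusted p = 0.00561) and in MIF_3 (-0.46 ± 0.13 SE, adjusted p = 0.0431) by the edgeR test. The MIF_1 level was 61.5% of WT and the MIF_3 level 72.8%. The MIF_1 call was lost without MIF_1 replicate 1 (adjusted p = 0.0701) or replicate 2 (adjusted p = 0.0583). The MIF_3 call was lost when any 1 library other than MIF_3 replicate 2 was left out (adjusted p = 0.0778 to 0.176), and the MIF_3 value was -0.27 without MIF_3 replicate 1 and -0.68 without MIF_3 replicate 2.

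Plastocyanin is encoded by PETE1 and PETE2, and PETE2 gives the more abundant transcript. PETE2 stood at 2229.6 and 2615 CPM in MIF_1, 2595 and 3114 CPM in MIF_3, and 3602 and 3698 CPM in WT. Its level was 66.4% of WT in MIF_1, where it fell (log2 fold change -0.59 ± 0.11 SE, adjusted p = 0.00754), and 78.2% of WT in MIF_3, where it did not pass (-0.36 ± 0.11 SE, adjusted p = 0.0735, edgeR). PETE1 stood at 149.9 and 165 CPM in MIF_1, 197 and 208 CPM in MIF_3, and 222 and 231 CPM in WT. The groups were in separate ranges, with MIF_3 nearer to WT than to MIF_1. PETE1 fell in MIF_1 (-0.52 ± 0.10 SE, adjusted p = 0.00569) and did not pass in MIF_3 (-0.16 ± 0.10 SE, adjusted p = 0.318, edgeR). Without MIF_1 replicate 1 the MIF_1 calls of PETE2 (-0.48) and PETE1 (-0.46) were lost. That of PETE2 was also lost without WT replicate 2 (-0.57). Per kilobase of exon, PETE2 was 11.6-fold and 12.3-fold above PETE1 in MIF_1, 10.3-fold and 11.7-fold in MIF_3, and 12.6-fold and 12.5-fold in WT. The log2 ratio of PETE1 to PETE2 counts differed by 0.14 between the 4 transgenic and the 2 WT libraries (exact permutation test, two-sided, p = 0.20), where the smallest p this design allows is 0.0667. The 2 coding sequences are 75.0% identical with no identical run longer than 17 bases, and no 50-base stretch of either gene's exons occurs elsewhere in the nuclear genome.

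FD2 encodes the main leaf ferredoxin, the carrier between photosystem I and ferredoxin-NADP+ oxidoreductase. It stood at 1128 and 1247 CPM in MIF_1, 916 and 1714 CPM in MIF_3, and 2378 and 2118 CPM in WT. It had the lowest levels relative to WT among the 10 genes, 52.8% in MIF_1 and 58.5% in MIF_3, and its MIF_3 libraries differed 1.87-fold, the widest replicate gap of any of the 10. FD2 fell in MIF_1 (log2 fold change -0.92 ± 0.23 SE, adjusted p = 0.0220), and in MIF_3 the value was -0.77 ± 0.23 SE (adjusted p = 0.0517, edgeR). The MIF_1 call was lost without any 1 of the MIF_1 or WT libraries (adjusted p = 0.0548 to 0.162) and under DESeq2 (adjusted p = 0.0660). In MIF_3 the FD2 log2 fold change was -1.29 without MIF_3 replicate 2 and -0.39 without MIF_3 replicate 1. Each of these fits held 1 MIF_3 library, so the gap between the MIF_3 libraries did not enter the spread. DESeq2 did not call FD2 in MIF_3 (adjusted p = 0.166). FD1 (AT1G10960), the second leaf ferredoxin gene, stood at 843 and 943 CPM in MIF_1, 892 and 843 CPM in MIF_3, and 816 and 788 CPM in WT, and did not pass in MIF_1 (log2 fold change 0.16, adjusted p = 0.305) or MIF_3 (0.11, adjusted p = 0.492, edgeR). The ratio of FD2 to FD1 counts was 1.34 and 1.32 in MIF_1, 1.03 and 2.03 in MIF_3, and 2.91 and 2.69 in WT. This ratio was chosen after the values were seen and has no test. The 2 ferredoxin coding sequences are 79.6% identical, with a longest identical run of 23 bases.

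LFNR1 and LFNR2 encode the leaf isoforms of ferredoxin-NADP+ oxidoreductase, the enzyme that reduces NADP+. LFNR1 stood at 565 and 623 CPM in MIF_1, 724 and 861 CPM in MIF_3, and 1019.7 and 1031 CPM in WT. The 3 groups did not overlap, and LFNR1 fell in MIF_1 to 57.9% of WT (log2 fold change -0.79 ± 0.11 SE, adjusted p = 0.00140) and in MIF_3 to 77.3% (-0.37 ± 0.11 SE, adjusted p = 0.0473, edgeR). Its MIF_3 call was lost when any 1 library other than MIF_3 replicate 2 was left out (adjusted p = 0.0866 to 0.181). LFNR2 stood at 284 and 303 CPM in MIF_1, 329 and 346 CPM in MIF_3, and 366 and 379 CPM in WT. LFNR2 fell in MIF_1 (-0.35 ± 0.09 SE, adjusted p = 0.0282), a call lost without any 1 of the MIF_1 or WT libraries (adjusted p = 0.0977 to 0.166), and did not pass in MIF_3 (-0.14 ± 0.09 SE, adjusted p = 0.349, edgeR). Within each library, LFNR1 counts were 1.99 and 2.06 times those of LFNR2 in MIF_1, 2.20 and 2.49 times in MIF_3, and 2.79 and 2.72 times in WT. All 4 transgenic ratios were below both WT ratios, a log2 difference of -0.34 (exact permutation test, two-sided, p = 0.0667, the smallest this design allows). With the PETE1 to PETE2 ratio this made 2 ratios tested, and neither could pass the threshold. LFNR1 is the only gene of the 10 that overlaps another annotated locus: AT5G66180, on the opposite strand, shares 191 exonic bases with it and stood at 13.2 and 14.3 CPM in MIF_1, 12.99 and 12.7 CPM in MIF_3, and 10.8 and 11.0 CPM in WT. Whether counting used strand is not given in the sources used here.

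**Figure D2:**
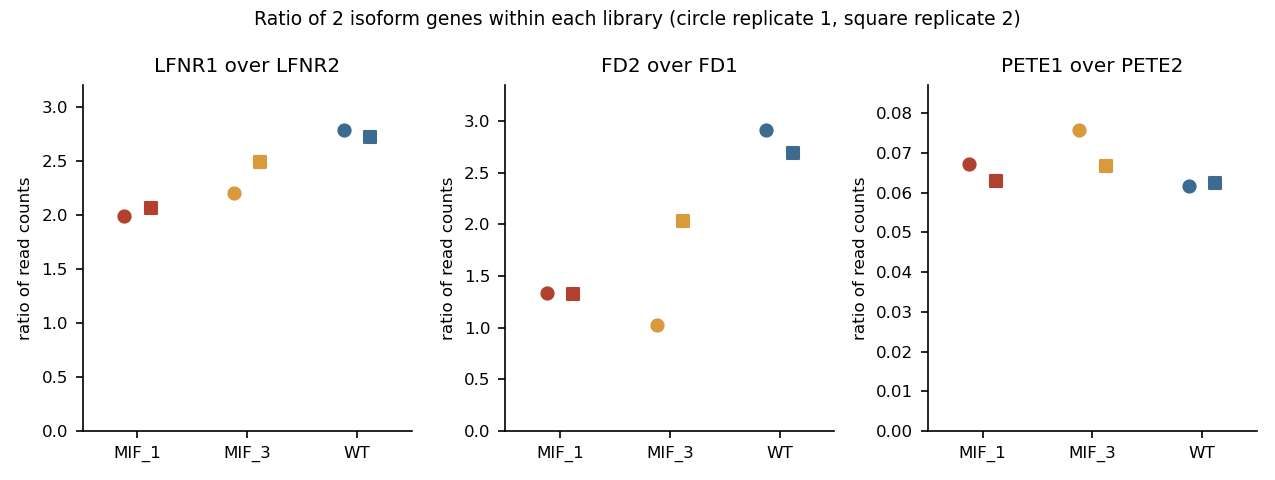
Ratio of counts of isoform genes in each library (linear axes from 0; MIF_1, MIF_3 and WT from left to right; circles are replicate 1 and squares replicate 2, n = 2 a group). The LFNR1 to LFNR2 and FD2 to FD1 ratios are lower in all 4 transgenic libraries than in both WT libraries, and the PETE1 to PETE2 ratio is higher.

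ATPC1 and ATPD encode the gamma and delta subunits of the chloroplast ATP synthase; gamma is the rotating stalk that thioredoxin regulates in the light, and delta joins the catalytic head to the membrane part. ATPC1 stood at 916 and 983 CPM in MIF_1, 1047 and 1134 CPM in MIF_3, and 1352 and 1344 CPM in WT. It fell in MIF_1 (log2 fold change -0.51 ± 0.09 SE, adjusted p = 0.00513) and in MIF_3 had a value of -0.31 ± 0.09 SE (adjusted p = 0.0537, edgeR). ATPD stood at 685 and 726 CPM in MIF_1, 696 and 869 CPM in MIF_3, and 1063 and 1056 CPM in WT. ATPD fell in both groups, to 66.6% of WT in MIF_1 (-0.59 ± 0.11 SE, adjusted p = 0.00716) and 73.8% in MIF_3 (-0.44 ± 0.11 SE, adjusted p = 0.0323, edgeR). The MIF_3 call of ATPD was likewise lost in those 5 settings (adjusted p = 0.0683 to 0.138), and its value was -0.29 without MIF_3 replicate 1. The MIF_1 call of ATPD was lost without MIF_1 replicate 1 (log2 fold change -0.55) and without MIF_1 replicate 2 (-0.63). For ATPC1 and ATPD the WT libraries were close together and the MIF_1 and MIF_3 libraries lay below them. ATPC2 (AT1G15700), the second gene for a gamma subunit, was listed at 0 counts in all 6 libraries. Whether the counting could assign reads to that locus was not tested, so the 0 is not read as a level.

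PGR5 and PGRL1A encode a small stromal protein and its membrane partner in cyclic electron flow. PGRL1A stood at 334 and 372 CPM in MIF_1, 433 and 398 CPM in MIF_3, and 501 and 526 CPM in WT. It fell in MIF_1 to 68.8% of WT (log2 fold change -0.54 ± 0.10 SE, adjusted p = 0.00541) and had a value of -0.31 ± 0.10 SE in MIF_3 (adjusted p = 0.0701, edgeR). PGR5 stood at 133 and 152 CPM in MIF_1, 145 and 152 CPM in MIF_3, and 172 and 179.9 CPM in WT. It was the only gene of the 10 that passed in none of the comparisons with WT, at 81.2% of WT in MIF_1 (-0.30 ± 0.10 SE, adjusted p = 0.0702) and 84.5% in MIF_3 (-0.24 ± 0.10 SE, adjusted p = 0.154, edgeR). In the mean of both transgenic groups PGR5 (-0.27 ± 0.09 SE, adjusted p = 0.0566) and LFNR2 (-0.24 ± 0.08 SE, adjusted p = 0.0554) were the 2 genes that did not pass, and DESeq2 called both (adjusted p = 0.0376 for PGR5 and 0.0293 for LFNR2).

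**Figure D3:**
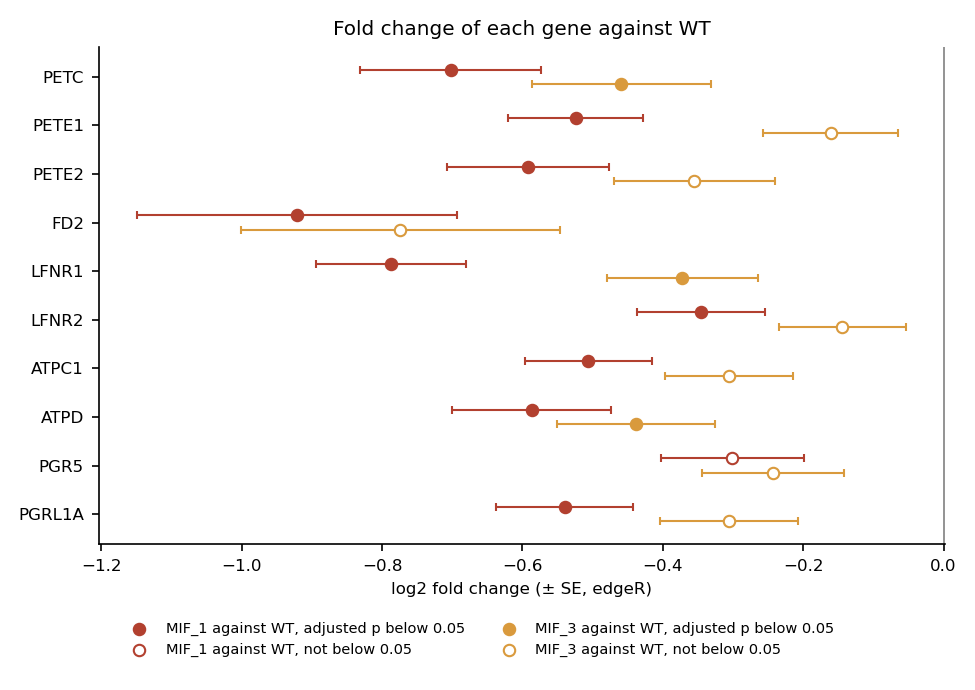
Log2 fold change (edgeR, with SE) of the 10 genes in MIF_1 and in MIF_3 against WT; filled points passed at an adjusted p below 0.05 and open points did not. All 20 values lie below 0, from -0.92 (FD2 in MIF_1) to -0.14 (LFNR2 in MIF_3).

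The fitted size of the difference varied among the 10 genes, and no test compared the genes with each other. FD2, at the low end in both groups, had the widest SE of the 10, 0.23 on the log2 scale. In MIF_1 the levels ran from 52.8% of WT for FD2 to 81.2% for PGR5, and in MIF_3 from 58.5% for FD2 to 90.5% for LFNR2. Per kilobase of exon, the order of the levels in WT was PETE2 (2709.6 ± 50.6 CPM per kb, SD, n = 2), FD2 (2282 ± 186), PETC (1236 ± 33.5), ATPD (920.5 ± 4.30), ATPC1 (887 ± 3.71), LFNR1 (679.6 ± 5.51), PGRL1A (339.7 ± 11.5), PETE1 (216 ± 5.84), LFNR2 (203 ± 5.16) and PGR5 (156 ± 4.74). In WT each gene differed from its neighbour in this order by more than the sum of their SDs. In MIF_3 the order of the means was the same except that ATPC1 (717 ± 40.5) stood above ATPD (679.6 ± 106), and neighbours from PETE2 down to LFNR1, and PETE1 and LFNR2, each lay within the sum of their SDs. In MIF_1 ATPC1 (624 ± 31.1) and ATPD (613 ± 25.2), and LFNR2 (159.9 ± 7.11) and PETE1 (150.1 ± 10.0), stood in the opposite order from WT, and each pair lay within the sum of its SDs.

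MIF_3 against MIF_1 compares the 2 transgenic sets with each other. All 10 fitted log2 fold changes were above 0, with a median of 0.22 and a range of 0.06 (PGR5) to 0.42 (LFNR1), and none passed edgeR's quasi-likelihood test; 3 had an unadjusted p below 0.05, and DESeq2 called 2, LFNR1 (adjusted p = 0.0129) and PETE1 (adjusted p = 0.0268). Over all genes 0.475% rose and 1.29% fell in this comparison. Libraries of MIF_3 and MIF_1 did not overlap for LFNR1, LFNR2, PETE1, PGRL1A and ATPC1, whereas FD2, ATPD, PETC, PETE2 and PGR5 had a MIF_3 library within or below the MIF_1 range. How many of all genes separate between these groups was not counted, so the separation is not read as a difference. MIF_3 replicates differed by 1.05-fold to 1.87-fold over the 10 genes, against 1.05-fold to 1.17-fold in MIF_1 and 1.01-fold to 1.12-fold in WT. The MIF_3 replicates were further apart than those of MIF_1 for PETC, PETE2, FD2, LFNR1, ATPC1 and ATPD, and closer together for PETE1, LFNR2, PGR5 and PGRL1A. In 9 of the 10 genes, all but PGRL1A, MIF_3 replicate 2 was the higher. Without MIF_3 replicate 1, 3 of the 10 genes passed. Without MIF_3 replicate 2 the sign turned for FD2 (-0.38) and ATPD (-0.02), and without MIF_1 replicate 1 it turned for PGR5 (-0.03).

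The mean profile of the 10 genes over the 6 libraries, in log2 CPM centred on each gene's mean, was -0.33 and -0.20 in MIF_1, -0.17 and 0.07 in MIF_3, and 0.31 and 0.32 in WT. The members followed it to different degrees: each gene's Pearson r with the mean of the other 9 was between 0.874 (FD2) and 0.993 (PETE2). Among 6137 other genes with a mean log2 CPM of at least 5, those most like this profile were AT3G48420 (r = 0.998), PSBO1 (AT5G66570, r = 0.998), CHLM (AT4G25080, r = 0.997), CRB (AT1G09340, r = 0.997) and PSBO2 (AT3G50820, r = 0.997). PSBO1 and PSBO2 encode the manganese-stabilising protein of photosystem II, CHLM a methyltransferase of chlorophyll synthesis, and CRB a chloroplast RNA-binding protein. These values describe 6 libraries that share depth and group differences and carry no p. PSBO1 stood at 2765 and 3034 CPM in MIF_1, 3239.7 and 4037 CPM in MIF_3, and 4922 and 5139 CPM in WT.

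Other genes of the same or linked pathways were read from the same fit, comparing the mean of both transgenic groups with WT. These lists were also chosen with earlier results of these data known, so their counts are no independent support. Of 12 tested nuclear genes for ferredoxins, oxidoreductases, their membrane anchors and other linked proteins, 4 fell, 8 did not pass and none rose. Their median log2 fold change was -0.26. PETM was the only cytochrome b6f subunit among them, and the list was not limited to leaf isoforms. In this comparison 10.9% of all genes and 29.1% of the abundant genes fell, and 4 of 12 is near the second share. Only PETM, FD1, TROL and TIC62 were that abundant, while the others had mean CPM ranks from 1915 to 11202. Neither share is thus matched to this list. TIC62 (AT3G18890) and TROL (AT4G01050), proteins that tether ferredoxin-NADP+ oxidoreductase to membranes, fell by 0.67 (adjusted p = 0.00225) and 0.34 (adjusted p = 0.0121) on the log2 scale, and PETM (AT2G26500), a small cytochrome b6f subunit, fell by 0.66 (adjusted p = 0.0332, edgeR). PETM stood at 269 and 311 CPM in MIF_1, 271 and 487 CPM in MIF_3, and 544 and 502 CPM in WT, and its call was lost under DESeq2 (adjusted p = 0.122). The fourth was PGRL1B (AT4G11960), the second PGRL1 gene, with a log2 fold change of -0.34 (adjusted p = 0.0433, edgeR). FDC1 (AT4G14890) was also listed at 0 counts in every library, with the same doubt as for ATPC2. The count of 4 became 1 without WT replicate 1, WT replicate 2 or MIF_1 replicate 1.

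Of 5 tested genes for other ATP synthase subunits and assembly factors, 2 fell and 3 did not pass, with a median of -0.13 (log2): CGL160 (AT2G31040), an assembly factor of the membrane part, fell by 0.43 (adjusted p = 0.00895) and ATPG (AT4G32260), a stator subunit, by 0.41 (adjusted p = 0.0109, edgeR). The count became 0 when WT replicate 1 was left out and 1 when WT replicate 2 was, and the median became -0.05 and -0.20 without those libraries. Of 8 cytochrome b6f assembly genes only HCF164 (AT4G37200), a thioredoxin-like protein, fell, by 0.38 (adjusted p = 0.0129, edgeR), and none passed once either WT library was left out; the median of the list was -0.18. Of 17 nuclear genes for the chloroplast NDH complex, which also carries cyclic electron flow, 10 fell, 7 did not pass and none rose, with a median of -0.39. PNSB1 (AT1G15980) fell by 0.58 (adjusted p = 0.00122), NDHM (AT4G37925) by 0.55 (adjusted p = 0.00231) and NDHS (AT4G23890) by 0.80 (adjusted p = 0.00287, edgeR). The NDH count became 5 without WT replicate 1 and 6 without either WT replicate 2 or MIF_1 replicate 1. Of 9 genes of the ferredoxin-thioredoxin system, which passes electrons from ferredoxin to regulated enzymes, 5 fell, 4 did not pass and none rose, with a median of -0.43. TRXF1 (AT3G02730) and TRXF2 (AT5G16400), f-type thioredoxins, fell by 0.53 (adjusted p = 0.00673) and 0.54 (adjusted p = 0.00535), and FTRA2 (AT5G08410), a subunit of ferredoxin-thioredoxin reductase, by 0.80 (adjusted p = 0.00834, edgeR). That count became 2 without either WT library and 3 without MIF_1 replicate 1. Over all genes 10.9% fell in this comparison, with a median of 0.01, and none of these list genes passed in MIF_3 against MIF_1.

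Taken group by group, 5 of 12 other electron transport genes, 2 of 5 other ATP synthase genes, 3 of 8 assembly genes, 11 of 17 NDH genes and 5 of 9 ferredoxin-thioredoxin genes fell in MIF_1, against 1, 0, 0, 5 and 2 in MIF_3, and none rose in either. Beside these stand 9.85% of all genes and 30.4% of the abundant genes that fell in MIF_1, and 7.47% and 16.5% in MIF_3. A count such as 1 of 12 in MIF_3 is thus near the share among all genes. No b6f assembly gene and few NDH genes were as abundant as the 10 genes, so the share of abundant genes is not matched to those lists. The MIF_1 and MIF_3 counts come from comparisons with the same WT libraries, and a difference between them is not a test of MIF_3 against MIF_1.

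**Figure D4:**
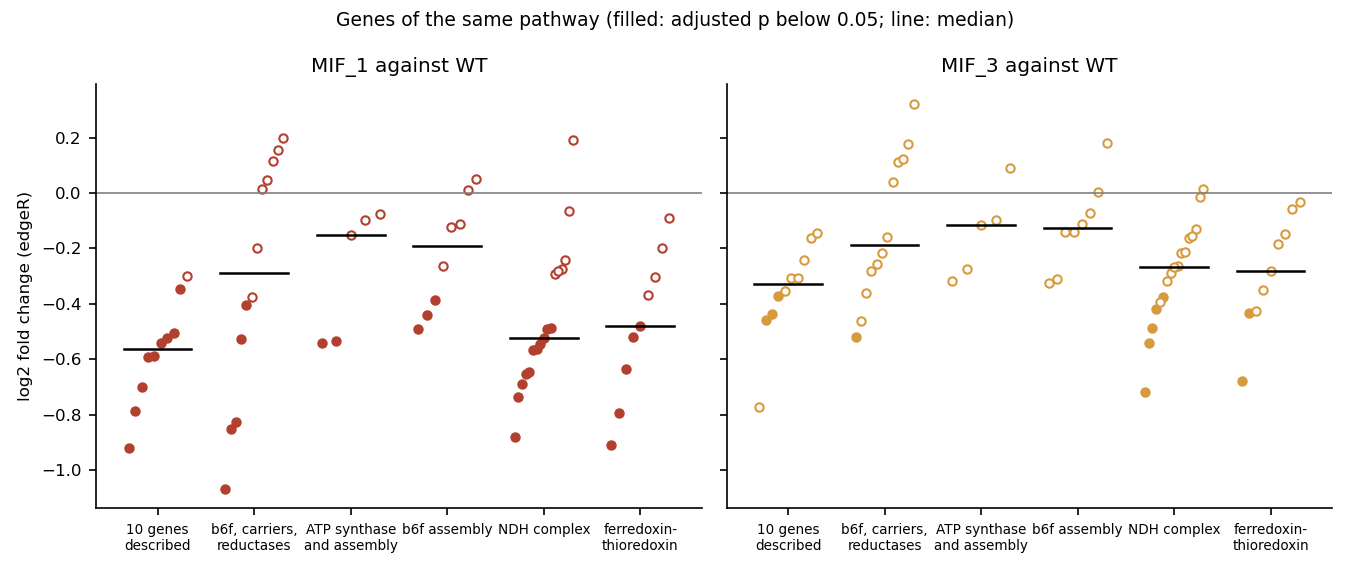
Log2 fold change (edgeR) of the 10 genes described here and of each tested gene of 5 nuclear lists, in MIF_1 against WT (left) and MIF_3 against WT (right); filled points passed at an adjusted p below 0.05, open points did not, and lines are medians. The NDH list has a median of -0.52 in MIF_1 and -0.27 in MIF_3, near those of the 10 genes (-0.56 and -0.33), and every filled point lies below 0.

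In these poly(A) RNA libraries, plastid loci for subunits of the same complexes had few counts. Of 12 listed, 8 could be tested, 7 fell, 1 did not pass and the median log2 fold change was -2.06 in the mean of both transgenic groups, where 10.9% of all genes fell. Without WT replicate 2, the library with the high organelle share, the median was -0.94 and 2 of the 8 passed. ATCG00480 had 326 and 258 counts in MIF_1, 444 and 421 in MIF_3, and 697 and 750 in WT (log2 fold change -1.46, adjusted p = 0.000118, edgeR). ATCG00730 had 28 and 16 counts in MIF_1, 8 and 9 in MIF_3, and 35 and 130 in WT, so its value of -3.08 (adjusted p = 0.00441) rests on WT replicate 2; without it the value was -1.64 (adjusted p = 0.131). ATCG00470 had a value of -1.66 (adjusted p = 0.00464) with all libraries and -1.49 (adjusted p = 0.0467) without WT replicate 2. The count of 7 was 4 without MIF_1 replicate 1 and 4 without MIF_1 replicate 2.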

How the data were processed

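Poly(A) RNA of 6 seedling libraries (2 each of MIF_1, MIF_3 and WT) was sequenced on a NovaSeq instrument, per the labels' protocols. The deposited values are raw HTSeq counts per locus; the submitters' processing notes name fastp, STAR, HTSeq and TAIR10, and give no version, strand setting or treatment of reads that map to several places. Genes passing filterByExpr (minimum count 10, minimum total 15) were fitted with edgeR 4.0.16 in R 4.3.3: TMM scaling, 1 coefficient per group over 6 libraries, quasi-likelihood tests with 3 residual degrees of freedom, and Benjamini-Hochberg adjustment over 20438 genes at 0.05. All 10 genes passed the filter. Each SE was obtained as the size of the log2 fold change divided by √F. CPM uses TMM-scaled library sizes, and per-kilobase values divide by the union of annotated exons of TAIR10.1, which also gave symbols, positions and upstream bases (RefSeq). Isoform ratios used a pseudocount of 0.5. The fits were also run on simulated counts, and no result given here rests on that run. Genes named beyond the 10 were those with the 3 smallest p values called in each list, MORF2 and the 5 most alike; FD1, FDC1, ATPC2, PGRL1B and AT5G66180 were added to the named genes with their values known. The members and lists were chosen with earlier results of these data known. Alternatives were DESeq2 1.42.0, other scalings, other filters, a replicate block, a stricter threshold of 0.01, removal of organelle loci and leaving out each library. Replicates of MIF_1, MIF_3 and WT differed beyond counting noise (chi-square per degree of freedom 9.19, 24.7 and 11.3).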

Additional observations from a re-analysis of the deposited data

How the results depend on the processing

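With 2 libraries a group, calls turned on single libraries. The direction against WT did not change for any of the 10 genes in the alternatives run. Where a library was left out, this followed from the separation of the transgenic and WT libraries, and it is not further support. Leaving out 1 library gave 1332 to 3947 genes called in MIF_1 against WT (3612 with all), with 1 to 9 of the 10 genes; 1575 to 2435 in MIF_3 against WT (2720 with all), with 0 to 6 of the 10; 2164 to 3843 in the mean comparison (3822 with all), with 3 to 9 of the 10; and 20 to 506 in MIF_3 against MIF_1 (360 with all), with 0 to 3 of the 10. The same settings gave 1 to 4 of the other electron transport genes, 0 to 2 of the other ATP synthase genes, 0 to 1 of the b6f assembly genes, 5 to 11 NDH genes, 2 to 6 ferredoxin-thioredoxin genes and 2 to 8 plastid loci. In MIF_3 against WT, 3 of the 10 passed in the fit reported, 6 under DESeq2, 5 with RLE scaling, 0 with upper-quartile scaling, 6 with no filter, 1 with a mean count of at least 50, and 0 with only the MIF_3 and WT libraries; the cause was not tested. At an adjusted p below 0.01, fewer calls by construction, 1575, 1143, 1865 and 101 genes passed in MIF_1, MIF_3 and their mean against WT and in MIF_3 against MIF_1, with 0 of the 10 in MIF_3; the lists kept 1, 1, 0, 5, 3 and 4 in the order above. MIF_3 against MIF_1 gave 739 genes and 2 of the 10 under DESeq2, and 687 genes and 1 of the 10 with no filter. DESeq2 called 2 other electron transport genes. Plastid loci called were 3 with a mean count of at least 50, and 0 with organelle loci removed, by construction. In MIF_3 against MIF_1 the log2 fold change ran from -0.377 (without MIF_3 replicate 2) to 0.53 (without MIF_3 replicate 1) for FD2, from -0.022 to 0.30 without the same libraries for ATPD, and from -0.034 (without MIF_1 replicate 1) to 0.158 (without MIF_1 replicate 2) for PGR5. The labels state no pairing of the replicate numbers. Deviations of same-numbered libraries correlated at -0.04, -0.04 and 0.04, which shows no strong shared shift and cannot exclude a pairing. With the replicate number as a block, 9, 5 and 8 of the 10 genes passed in MIF_1, MIF_3 and their mean against WT. With that block 0 of the 10 passed in MIF_3 against MIF_1. Reassignment within replicate numbers gave p = 0.222 for PETE1 over PETE2 and p = 0.111 for LFNR1 over LFNR2 (exact permutation tests). The second value is the smallest p that this reassignment allows, so neither ratio could pass the threshold. Leaving out 1 library gave log2 ratio differences of 0.08 to 0.17 for PETE1 over PETE2 and -0.40 to -0.29 for LFNR1 over LFNR2.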
